A study of Drosophila melanogaster with 2 samples.

Results

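The genes described here are 49 homeobox transcription factor genes of Drosophila melanogaster that lie outside the Hox, POU, Iroquois, engrailed and pair-rule groups. They are a list of names with no measured value in its rule, although the list was drawn up when earlier results of these data were known, and all 49 were found among the 13945 protein-coding genes of the annotation. Each gene was given a window of its gene body with 10 kb on each side, and the binding summits of vvl-eGFP inside that window were counted. Binding was mapped by chromatin immunoprecipitation and sequencing in 2 biological replicates, which form 1 group, of whole transgenic embryos between 0 and 24 h old. The flies, of strain vvl-GFP, carried an insertion that targets the gene ventral veins lacking (vvl) and made a fusion of vvl with eGFP, which was pulled down through its GFP. The labels do not say whether the fusion replaces the native protein or adds to it, the sex of the embryos was not collected, and no control sample was used here. Both replicates carry the fusion, so no comparison between conditions is possible and no p-value is given.

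Homeobox genes encode transcription factors that bind DNA through a homeodomain, and many of them fix the identity of a body region, a cell layer or a neuron type. The set holds head and trunk patterning genes, the eye genes of the Pax and sine oculis classes, the NK genes of heart and muscle, the LIM-homeodomain genes, limb genes and a group that marks neurons, brain and glia. vvl is itself a homeobox gene of the POU class, with roles in trachea, glia and neurons, and POU proteins bind the octamer word ATGCAAAT. In whole embryos the cells that make the fusion are mixed with all others, so a summit says where the fusion was recovered, not in which cells.

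The octamer is the word a POU protein is best known to bind, so the summits of these genes that carry it are shown first. It was sought on both strands within 100 bp of each summit, and 4 of the 119 summits in the windows held it. The sequences below are from the Release 6 genome (dm6) in RefSeq, written 5' to 3' on the strand that reads the octamer, which stands in capitals. The first lies 3' of eyg at 3L:12455407-12455474 on the + strand, the second in an intron of Lim1 at X:8777199-8777266 on the + strand, and the third in an intron of Awh at 3L:3851280-3851347 on the + strand. The fourth lies in the window of B-H2 at X:17305710-17305777 on the - strand, but the nearest transcription start there is that of CG5445; it was singled out after its values were seen.
eyg: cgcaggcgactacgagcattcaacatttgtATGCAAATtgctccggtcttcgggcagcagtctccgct
Lim1: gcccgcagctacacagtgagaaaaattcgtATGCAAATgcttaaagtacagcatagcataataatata
Awh: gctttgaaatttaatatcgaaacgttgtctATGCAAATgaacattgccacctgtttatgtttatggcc
CG5445: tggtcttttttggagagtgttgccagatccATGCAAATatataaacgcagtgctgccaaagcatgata

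The next sequences are those of strong summits. A word was sought only as these letters, so a missing word says nothing about what binds there. Shown are the 121 bases centred on the strongest summits whose nearest start belongs to tin, zfh1, lbl and bap, 4 of the 5 members with the strongest summits of their own, all on 3R and all written on the + strand. The tin sequence spans 3R:21378715-21378835, that of zfh1 in its intron 3R:30781726-30781846, that of lbl 3R:21440178-21440298 and that of bap 3R:21386269-21386389. A further zfh1 sequence, upstream of the gene at 3R:30764215-30764335, shows the GA repeat that recurs in the set. Capitals mark any of the 8 words sought: the octamer, its variants ATGCTAAT and ATGCATAT, the homeodomain word TAATTA, the GAGA-factor repeat GAGAGAG, the core-promoter words TATCGATA and GGTCACAC, and CAGGTAG, the word of Zelda. TAATTA and TATCGATA read the same on both strands, ATGCTAAT and TAATTA can share letters, and copies of GAGAGAG can overlap each other. The tin, zfh1 intron and lbl sequences hold none of the 8.
tin: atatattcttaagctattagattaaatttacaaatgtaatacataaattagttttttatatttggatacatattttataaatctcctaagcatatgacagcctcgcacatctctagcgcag
zfh1 intron: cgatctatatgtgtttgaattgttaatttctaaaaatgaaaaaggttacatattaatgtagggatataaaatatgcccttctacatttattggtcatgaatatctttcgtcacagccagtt
lbl: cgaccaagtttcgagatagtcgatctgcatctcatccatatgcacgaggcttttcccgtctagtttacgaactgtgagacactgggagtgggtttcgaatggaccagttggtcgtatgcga
bap: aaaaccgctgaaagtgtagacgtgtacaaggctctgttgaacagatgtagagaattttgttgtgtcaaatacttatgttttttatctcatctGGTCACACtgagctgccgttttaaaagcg
zfh1 upstream: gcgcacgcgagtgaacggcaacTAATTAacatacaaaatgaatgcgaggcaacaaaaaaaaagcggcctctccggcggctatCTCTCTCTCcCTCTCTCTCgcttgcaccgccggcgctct

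Summits were taken from the series' conservative list, which holds 8309 peaks on 6 arms. Each replicate also has a list of its own, with 9050 peaks in replicate 1 and 7098 in replicate 2, and a broader list of the series holds 11692. Peak signal and summit position are the values the authors gave each peak, and peaks were ranked from 1, the highest signal in the conservative list. The lists hold no read counts, so the depth of each replicate is unknown. All intervals are Wilson 95% intervals; they cover counting error over genes or summits, which are not replicates.

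Most of the 49 genes had vvl-eGFP binding in their window, at about the rate of other genes of their size. A summit was present at 41 of them, 83.7% (71.0 to 91.5), against 74% of all protein-coding genes. The members are long, with a median window of 31.1 kb against 22.2 kb over all genes, and in the length classes the members fall in, 82.1% of genes had a summit (all genes were divided into 20 classes of equal size by window length, and the class values were averaged over the 49 members). The windows held 119 distinct summits in 1605 kb, or 0.741 per 10 kb, against 0.619 per 10 kb in the rest of the arms, gene windows or not. Taken window by window, the median was 0.677 per 10 kb for members and 0.756 over all genes. The median was 2 summits per gene, as over all genes. The mean was 2.61 per member, between the 2.24 of all genes and the 3.03 of the length classes. Neighbouring windows overlap, so lbl and lbe share 4 summits, Pph13 and Gsc 2, and the pairs tin and bap, zen and bcd, and gsb-n and gsb 1 each.

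Set against genes of the same window length, the counts spread over the whole range. The percentile of a gene is the percent of genes in its length class with fewer summits plus 50% of the ties. The median percentile of the 49 genes was 44.2, with 22 genes at 50 or above and 27 below. At or above the 90th percentile were 3 genes, Awh, lbe and al, which is 6.12% (2.10 to 16.5) of the set against 9.4% of all genes. In the list of replicate 1 alone there were 4 such genes, and the median percentile of all 49 was 52.4. In that of replicate 2 alone there were 0 such genes, and the median of all 49 was 43.75. The windows of 8 members held 5 or more summits, or 16.3%, against 23.5% in the length classes.

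**Figure D1:**
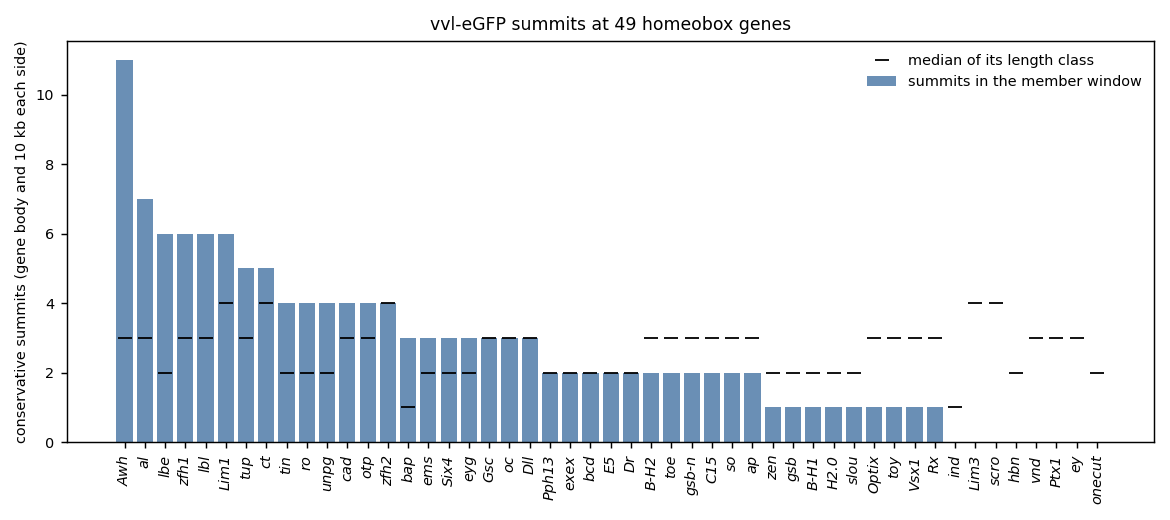
Number of conservative summits in the window of each of the 49 genes (bars; gene body and 10 kb on each side), with the median of the gene's length class as a dash. Awh stands highest with 11 summits, and 8 genes have none.

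What the windows hold less of is other genes. On average 2.06 other protein-coding genes had a transcription start in a member's window, against 4.66 in the length classes and 4.92 over all genes. Summits nearest to the gene's own start were found at 31 members, 63.3% (49.3 to 75.3), against 48.8% in the length classes and 31% of all genes. The mean number of such summits was 1.57 per member, 1.16 in the length classes and 0.571 over all genes. A summit within 500 bp of the gene's own start was present at 24 members, 49% (35.6 to 62.5), against 39.8% in the length classes and 28.7% of all genes. The part that gene spacing has in these shares was not tested.

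The 119 summits lay more often in intergenic sequence and far from a start than the other 8190, without a match for window length or gene spacing. Promoters, within 500 bp of a start, held 36.1% (28.1 to 45.1) of them, against 42.9% of the other summits, which lies in that interval, and with a flank of 2 kb the share was 42.6%. Introns held 27.7% (20.5 to 36.4) against 37.0%, and intergenic sequence held 34.5% (26.5 to 43.4) against 18.1%. More than 5 kb from any start lay 39.5% (31.2 to 48.5) against 23.0%. Among all 119, the nearest start was that of a member for 77, and the other 42 were nearest to 30 neighbouring genes. The 42 lay closer to a start, at a median of 735 bp, than the 77, at a median of 5136 bp. In signal the set was close to the rest, with a median rank of 3669 against 4161.5 for the other summits and a median peak signal of 154 against 141.

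**Figure D2:**
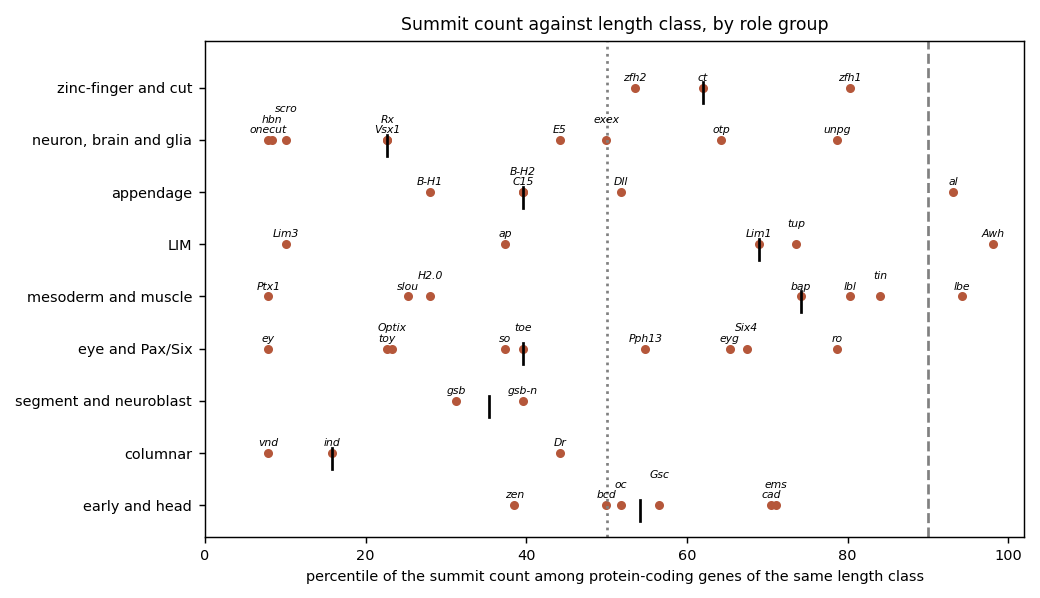
Percentile of each gene's summit count among protein-coding genes of the same length class, with the genes in rows by role. Points are genes, black bars the median of a group, and the dotted and dashed lines mark the 50th and 90th percentiles. The points run from onecut at 7.82 to Awh at 98.1.

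The genes of mesoderm and muscle had the highest median percentile of the role groups, 74.2, and 6 of their 7 genes had a summit. That median is the value of bap, and the first place was lost where close summits were merged. Merging counted summits closer than 250 bp to a stronger one once with it, an alternative added after the data were seen. It put bap, still the middle gene of its group, at 60.1, below the 71.8 of Lim1, the middle LIM gene. tin, the gene that specifies the heart and the gut muscle, carried the strongest summit of any member at its own start. This summit, at 3R:21378602-21378921 and 202 bp upstream of the start, ranked 128 with a signal of 921. Its signal was 577 in replicate 1 and 349 in replicate 2, and the lists of both replicates hold it. bap, which acts in the gut muscle, had its strongest summit 2.55 kb upstream of the start (rank 613), with a signal of 292 in replicate 1 and 131 in replicate 2. Both genes stood in the upper part of their length classes, tin with 4 summits at the 84.1 percentile and bap with 3 at 74.2. With close summits merged, tin kept 4 and stood at 86.5, while bap had 2 and stood at 60.1.

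lbl and lbe, the ladybird pair of heart and muscle progenitors, lie side by side, and each window held 6 summits. Of these, 4 are the same summits, since the windows overlap. The strongest lay between the genes, 6.11 kb upstream of the start of lbl (rank 497), with a signal of 367 in replicate 1 and 118 in replicate 2. lbe had a summit at its start (rank 2079), with a signal of 172 in replicate 1 and 42.7 in replicate 2. lbl had one too (rank 2892), with 139 in replicate 1 and 31.8 in replicate 2. These 3 summits are the strongest of the pair's own. lbe stood at the 94.2 percentile and lbl at 80.2. Where summits closer than 250 bp to a stronger one were counted once with it, an alternative added after the data were seen, lbe fell to 4 summits and the 82.2 percentile.

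The remaining muscle genes had little. slou, a muscle identity gene, had 1 weak summit (rank 7374) 4.41 kb from its start. H2.0, expressed in visceral muscle, had 1 summit (rank 4105), 9.51 kb outside the gene. It lay in an intron of CG9109, and the nearest start was that of CG9107. Ptx1 had no summit in its 37.9 kb.

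tin, bap, lbl, lbe, C15 and slou are neighbours and form the NK homeobox cluster, which spans 178 kb at 3R:21378977-21557182 with 12 protein-coding genes. With 10 kb on each side the cluster held 19 summits, or 0.959 per 10 kb, and 17 of them lay in members' windows. The start nearest to the summit was that of a cluster gene for 10 of the 19. The highest signal in the cluster was not at a homeobox gene. It was at a summit in the window of C15, a gene of the distal leg, at 3R:21520218-21520512, where the nearest start, 561 bp away, was that of sp3. This summit ranked 94, the strongest in any member's window, and its signal was 429 in replicate 1 and 638 in replicate 2. The summit at the start of C15 itself was weaker (rank 2425).

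**Figure D3:**
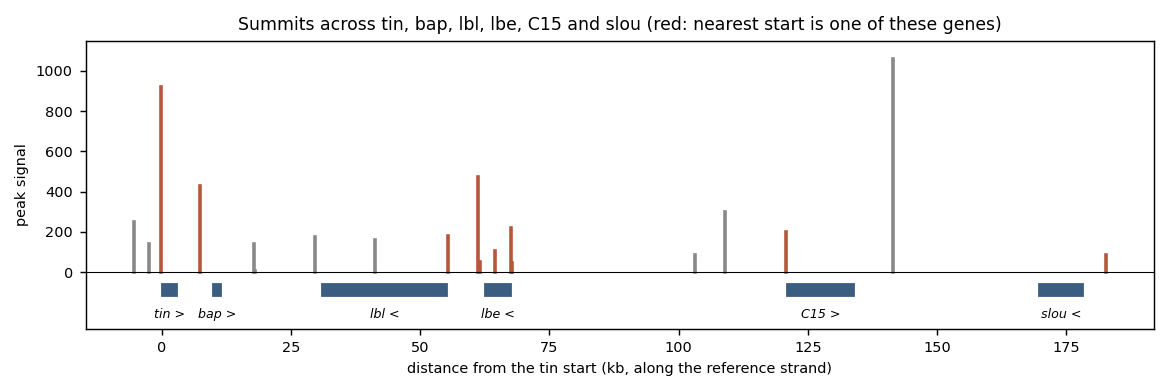
Peak signal (vertical axis, the authors' value in the conservative list) of each summit across the NK cluster, against distance from the start of tin along the reference strand. Blue boxes are the 6 homeobox genes, with their direction as an arrow head; red summits are nearest to one of them and grey ones to another gene. The tallest red line is at the start of tin (921) and the tallest grey one at sp3 (1058).

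The LIM-homeodomain genes, which carry protein-binding LIM domains beside the homeodomain, had a median percentile of 69.0, and 4 of 5 had a summit. Awh, needed for the abdominal histoblasts and the imaginal rings of the salivary glands, had the most summits of all 49 genes. Its 35.5 kb window held 11, of which 8 were in its introns, 1 at its promoter and 2 downstream, and its own start was the nearest to every one of them. Only 17 of the other 696 genes of its length class, or 2.44%, had 11 or more. The strongest lay 1.92 kb inside the gene (rank 1002), with a signal of 259 in replicate 1 and 79.0 in replicate 2. The list of replicate 1 held 13 summits in this window and that of replicate 2 held 6, so Awh was the richest member in both.

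Lim1, a gene of the head, legs and neurons, had 6 summits, all nearest to its own start, of which the strongest lay in an intron (rank 1782), with a signal of 132 in replicate 1 and 111 in replicate 2. tup, the Islet gene of motor neurons and the heart, had 5. Of its own summits the strongest lay 9.04 kb upstream (rank 1395), with 145 in replicate 1 and 131 in replicate 2. The promoter of the neighbouring CG10602 held a stronger one (rank 806). ap, the selector of the dorsal wing, had 2 summits, both at the promoter of Cndp2 and neither nearest to ap. Merging counted these 2 as 1. Lim3, which acts in ventrally projecting motor neurons, had none.

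zfh1, zfh2 and ct, large genes that combine a homeodomain with zinc fingers or cut domains, all had summits, with a median percentile of 62.0. onecut was not placed in this group but with the genes of neurons, brain and glia, and it had no summit. zfh1, a gene of the mesoderm and motor neurons, had 6 summits (percentile 80.2) and 3 of the strongest member-nearest summits of the set. The one in its intron ranked 250 and had a signal of 326 in replicate 1 and 345 in replicate 2. The one 1.65 kb upstream ranked 575, with 309 in replicate 1 and 137 in replicate 2. The one just past its 3' end ranked 831, with 214 in replicate 1 and 159 in replicate 2. None of these 3 lay within 500 bp of a start, and zfh1 had no summit at its own promoter. zfh2, a nervous system gene on chromosome 4, had 4 summits, of which the strongest (rank 1551) had a signal of 166 in replicate 1 and 85.3 in replicate 2. These 4 were most of the 5 member-window summits on chromosome 4, where the conservative list holds 13 peaks in all. ct, a gene of external sense organs, had 5 summits in 90.4 kb, 4 of them nearest to its own start.

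**Figure D4:**
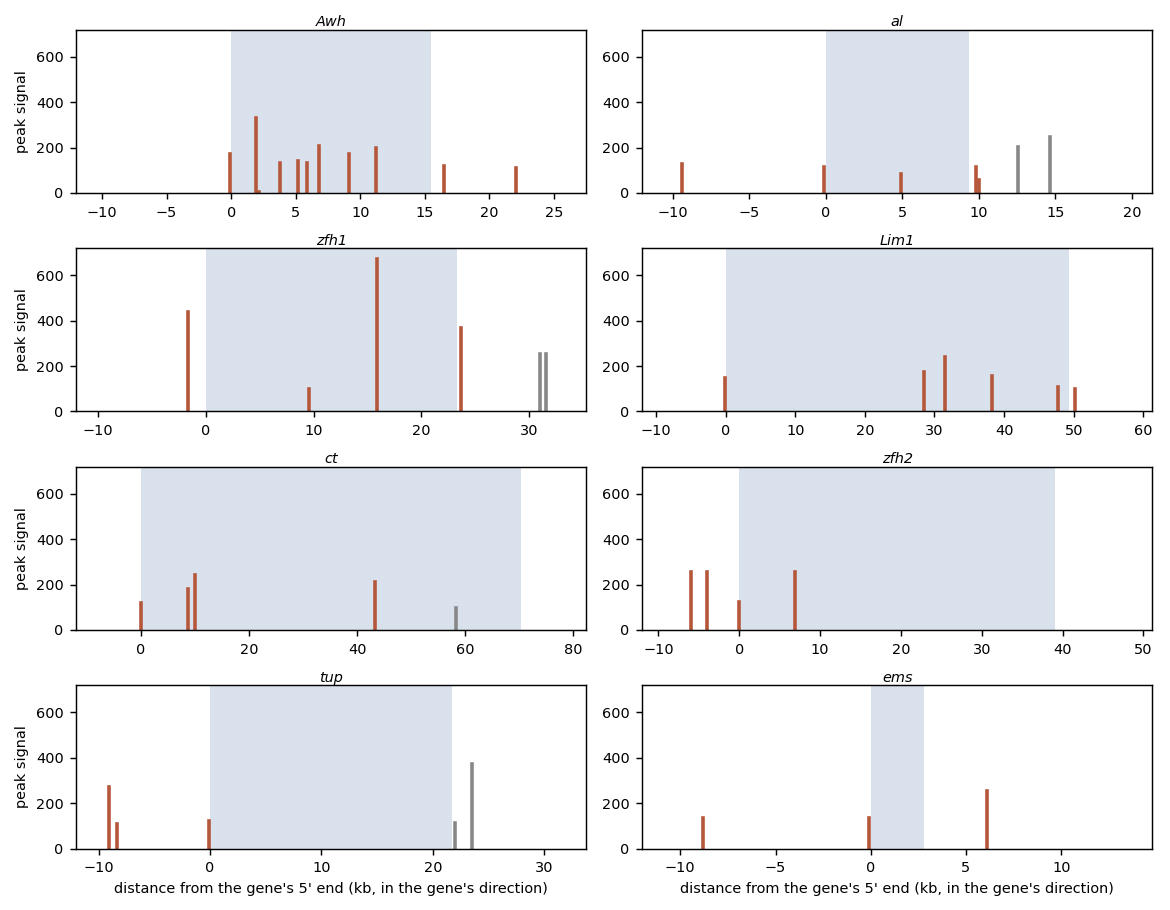
Peak signal of each summit in the windows of 8 genes, against distance from the gene's 5' end in the direction of transcription; the shaded span is the gene body. Red summits are nearest to the gene's own start and grey ones to another gene. Awh, Lim1 and ct carry most of theirs inside the gene, while all 4 of the red lines above 300 belong to Awh and zfh1.

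The early and head genes all had a summit, 6 of 6, with a median percentile of 54.2. bcd, the maternal morphogen of the anterior, had a summit 200 bp from its start (rank 1543), with a signal of 115.3 in replicate 1 and 151 in replicate 2. This summit is also the only one in the window of zen, the gene of the dorsal amnioserosa, which has none of its own. ems, a head gap gene, had 3 summits, all nearest to its own start and at the 71.0 percentile, of which the strongest (rank 1569) lay 6.08 kb from the start, past the gene. Its signal was 156 in replicate 1 and 103 in replicate 2. oc, the orthodenticle head gene, had 3 distant summits, the strongest (rank 1248) 15.8 kb from the nearest of its starts, with 172 in replicate 1 and 110 in replicate 2. cad, the posterior gene, had 4 summits (percentile 70.5). The strongest of them, rank 564, was at the promoter of the neighbour Pomp, and 1 was at cad's own start (rank 2840). Gsc, a gene of the foregut and head, had 3 summits, of which none was nearest to it. The strongest (rank 3211) was at the promoter of cold and is shared with Pph13.

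Of the 3 columnar genes, which divide the early nerve cord from ventral to dorsal, Dr, the dorsal one, was the one with summits. It had 2, a distal one (rank 2247) with a signal of 103 in replicate 1 and 105 in replicate 2, and one at its start (rank 2684). vnd and ind, the ventral and intermediate genes, had none. The segment polarity gene gsb and its neural partner gsb-n share 1 summit, at the start of gsb-n (rank 3672) with a signal of 118 in replicate 1 and 31.9 in replicate 2. gsb-n had 1 more, and this shared summit, 9.59 kb from gsb, was the one closest to the edge of a window from inside. The nearest summit outside an edge lay 10.003 kb from Rx.

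Genes of the Pax and sine oculis classes, grouped with the eye genes ro and Pph13, had summits at 8 of 9 genes but a median percentile of 39.6. ro, a gene of photoreceptor identity, had 4 summits (percentile 78.7), of which 1 lay 0.343 kb upstream of it, although none had ro as its nearest start. The strongest of these was at ms(3)K81 (rank 1923). With close summits merged, ro had 3 and stood at 68.2. eyg, a Pax gene of eye growth, had 3 summits, all nearest to it, while its paralogue toe had 2, of which 1 was nearest to it. so had 2 weak ones (ranks 7767 and 7814) and Optix had 1 (rank 6352). Six4, a gene of the muscle and gonad, had 3, none its own, and the strongest was at the promoter of tzn (rank 329, signal 261 in replicate 1 and 315 in replicate 2). Pph13, a photoreceptor gene, had 2, both at the promoter of cold, which merging counted as 1. Of the Pax6 pair, toy had 1, nearest to fuss (rank 805), and ey had none.

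All 5 genes of the appendages had a summit, at a median percentile of 39.6. Dll, the gene of the distal limb at 2R:24814822-24835667, carried a summit 105 bp upstream of its start that ranked 322. Its signal was 501 in replicate 1 and 76.9 in replicate 2, at ranks 132 and 2973 of their ranked lists. al, a gene of the leg tip, had 7 summits (percentile 93.1), of which 5 were nearest to it, and the strongest of those ranked 4897. The strongest in its window, nearest to CG4213 (rank 1697), had a signal of 180 in replicate 1 and 58.4 in replicate 2. B-H1 and B-H2, the Bar genes, had 1 and 2 summits, and 1 of each gene's was its own.

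Genes of neurons, brain and glia were the lowest of the larger groups, with a median percentile of 22.7 and a summit at 6 of 9. That place rests on scro and onecut, which lie where few or no peaks were ranked at all: without scro and the members on chromosome 4, an alternative added after the data were seen, the median of the other 7 was 44.2, above the 39.6 of the appendage genes. The same step took the eye genes to 7 of 7 with a summit and a median of 54.8, and the whole set to 39 of 44 and a median of 49.9. unpg, expressed in the nerve cord, had 4 (percentile 78.7), 3 of them at the promoters of neighbours. The strongest was at a start shared by CG45085 and CG8026 (rank 2940), with a weaker one (rank 7981) closer than 250 bp to it. With close summits merged, unpg had 3 and stood at 68.2. otp, a gene of the hindgut and brain, had 4, of which 1 in an exon of otp ranked 133. The nearest start to that summit, 4.66 kb away, was that of Cib2, and its signal was 465 in replicate 1 and 417 in replicate 2. exex, the HB9 gene of motor neurons, and E5, a relative of ems, had 2 each, all their own. Vsx1 had 1 of its own, and Rx had 1, nearest to Act57B.

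No summit was found at 8 genes, namely Lim3, scro, hbn, vnd, ind, Ptx1, ey and onecut. They are not alike in the wider lists. The ranked list behind the conservative one holds peaks on both sides of its threshold, an irreproducible discovery rate (IDR) of 1%, and it had 59 peaks at Lim3, 52 at Ptx1, 34 at vnd, 26 at hbn and 8 at ind. The best of these stood at 1.09% for Ptx1, 1.16% for Lim3, 1.46% for hbn and 1.91% for vnd, and at 18.1% for ind. Ptx1 and Lim3 thus came closest to the threshold. Lim3, Ptx1 and hbn each had 1 summit in the broader list, and in the list of replicate 1 Lim3 had 2 and ey had 1. ind, scro, vnd and onecut had none in any of the 4 thresholded lists.

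At scro, ey and onecut the ranked list held no peak at all. scro lies on 3L in a stretch of 2620 kb with no ranked peak, 22948214 to 25567874, which spans 27 protein-coding genes, whereas the arm as a whole holds 593 ranked peaks per Mb. Its 0 is shared with this whole stretch, and whether summits could be measured there was not tested, so scro is counted without a summit but its 0 cannot be read as a lack of binding. ey and onecut are on chromosome 4, which holds 28.9 ranked peaks per Mb, and of its 80 protein-coding genes 15, or 18.75%, had a summit. The other 2 members there, zfh2 and toy, had one.

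The replicates did not contribute equally to these windows. Of the 119 summits, 91.6% (85.2 to 95.4) were found in the list of replicate 1 (overlap of 1 bp or more), against 81.4% of the other summits. In the list of replicate 2 it was 75.6% (67.2 to 82.5) against 73.4%. Both lists held 69.7% (60.98 to 77.3) against 62.3%, and neither held 2.52% against 7.51%. Counted in each replicate's own list, the members had a mean of 3.18 summits in replicate 1, close to the 3.22 of the length classes. In replicate 2 the mean was 1.92 against 2.63. More summits in replicate 1 than in replicate 2 were found at 31 members, 63.3% (49.3 to 75.3), against 44.0% in the length classes. Fewer were found at 3 members, 6.12%, against 21.6%, and 15 members had equal numbers. No summit was found at 8 members, 16.3%, in the list of replicate 1, against 17.9% in the length classes and 26.1% of all genes. In that of replicate 2 it was 12 members, 24.5%, against 18.1% in the length classes and 26.4% of all genes. exex, H2.0, slou and toy had a summit in the conservative list and in that of replicate 1 but none in that of replicate 2, and for ap and Vsx1 it was the other way round.

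Peak signals were compared through their ratio. The median ratio of the signal in replicate 1 to that in replicate 2 was 1.55 at the 103 member-window summits with a value in both ranked lists, and 1.40 at the other summits. It was 1.66 at summits nearest to a member and 1.20 at those in the windows nearest to another gene. At the 21 member-nearest promoter summits with both values it was 1.96, against 1.29 at promoter summits outside the windows. More than 500 bp from a start it was 1.56 at member-nearest summits, against 1.48 outside the windows. How signals are scaled between the 2 lists is not given in the sources used here, so the ratios are set against each other and not against 1.

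**Figure D5:**
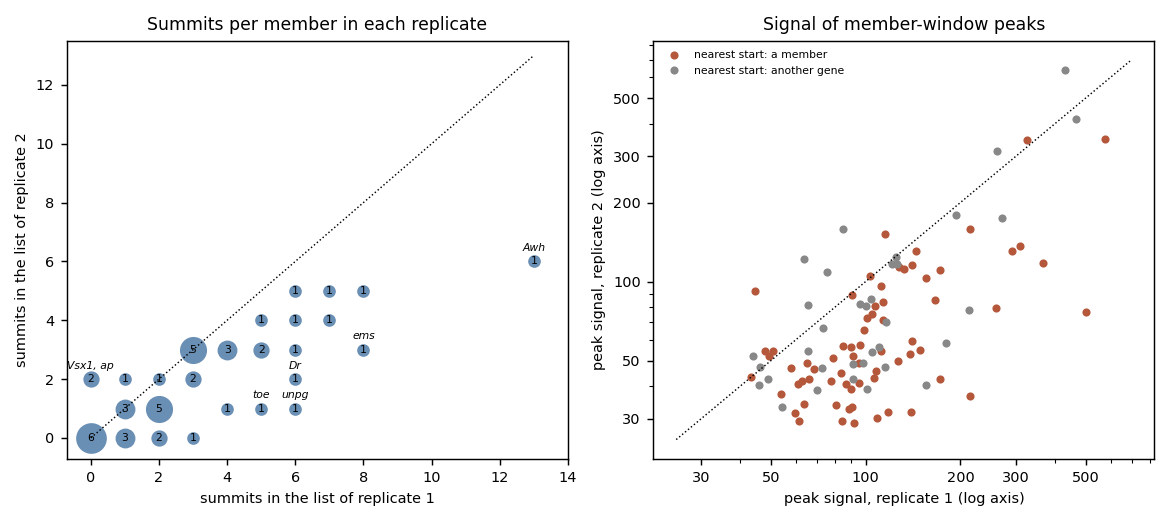
Left, summits per gene in the list of replicate 1 (horizontal) and of replicate 2 (vertical); each point is labelled with its number of genes and the dotted line marks equal numbers. Right, peak signal in the 2 replicates at 103 summits of the windows, on log axes. In the left panel 31 genes lie below the dotted line, with more summits in replicate 1, and 3 above it; the line in the right panel marks equal values only, since the scaling between the lists is not known.

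The share of summits with the octamer was below that of other summits, but each interval of a member share given here covers the share beside it. It was found at 4 of 119, 3.36% (1.31 to 8.32), against 6.73% (6.21 to 7.29) of the other summits. The member share was also the lower one in the list of replicate 1, with 5.48% (2.80 to 10.4) against 8.45%. In that of replicate 2 it was 2.27% (0.625 to 7.91) against 5.48%. Within 200 bp of the conservative summits it was 7.56% (4.03 to 13.8) against 9.71%. All these lists come from the same 2 replicates, so they are not independent of the first count. In the broader list the shares were closer, 6.06% (3.32 to 10.8) against 7.16%. More than 500 bp from a start it was at 5.26% (2.07 to 12.8) against 8.84%. None of the 43 promoter summits held it, which allows up to 8.20%, against 3.92% of other promoter summits. The windows were not short of the word itself, with 285 octamers or 1.78 per 10 kb, the density of the rest of the arms. Of these 285, 1.40% (0.547 to 3.55) stood at a summit, against 2.46% in the rest. Most copies in a window were away from summits. At Lim1 the 69.3 kb window held 22 octamers and 1 of them was at a summit. At ct there were 23 and at otp 14, with none at a summit.

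The 4 octamer summits ranked from 1195 to 4190, and 3 of them stood above the median rank of all summits, 4155. That of eyg ranked 3003, with a signal of 114 in replicate 1 and 71.1 in replicate 2. That of Lim1 ranked 3023, with 101 and 72.5, and that of Awh ranked 4190, with 95.4 and 41.2. The one nearest to CG5445 was the strongest, at rank 1195 with 212 in replicate 1 and 78.0 in replicate 2.

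The GA repeat was the word whose share lay furthest above the other summits. GAGAGAG, the repeat bound by the GAGA factor, was found at 13.4% (8.45 to 20.7) of the 119 summits against 5.87% (5.38 to 6.40) of the others. At the 77 summits nearest to a member it was at 16.9% (10.1 to 26.8), or 13 summits of 12 genes, and at their 24 promoter summits at 25% (12 to 44.9), against 6.48% of other promoter summits. In the list of replicate 1 the share was 11.6% (7.40 to 17.9) against 7.17%, and in that of replicate 2 it was 12.5% (7.13 to 21.0) against 5.01%. Of the 10 words counted it was picked out here after the shares were seen, and no test was made of it. The genes were lbe, al, zfh1, lbl, Lim1, eyg, oc, exex, E5, B-H1, slou and Dll, the last with 2 such summits. The homeodomain word TAATTA was at 18.5% (12.5 to 26.4) against 15.6%. ATGCTAAT was at 3.36% against 2.63%, ATGCATAT at 1.68% against 2.58%, and the core-promoter words TATCGATA and GGTCACAC at 1.68% and 3.36% against 3.83% and 3.02%. CAGGTAG was at 0.840% against 0.745%. The 2 control words, rearrangements of the octamer, were at 0 and 1 of the 119 summits.

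Compared with the 44 homeobox genes of the other groups as 1 set, the 49 genes had like counts. Of the 44, 23 are TALE genes or further homeobox genes of none of the groups named at the start. A summit was present at 38 of those 44, 86.4%, and their median percentile was 45.7, with 5 at or above the 90th. Among these 5 is vvl itself, the gene of the fusion, with 9 summits at the 99.6 percentile. Hox genes had a summit at 6 of 8 (median percentile 60.4), POU genes at 5 of 5 (44.3) and TALE genes at 4 of 4 (76.0). Lower stood the Iroquois genes with 3 of 3 (39.6), the pair-rule genes with 2 of 3 (31.25) and the 19 further homeobox genes with 16 (35.2), while engrailed and its paralogue had 2 of 2 (54.6). Of the TALE genes, the Hox cofactors hth and exd stood at 99.1 and 26.7, and achi and vis at 80.9 and 71.0. The 140 distinct summits at the 44 genes included 10 with the octamer, against 4 of 119 at the members. A summit nearest to the own start was present at 21 of the 44 and at 31 of the 49. None of these differences was tested.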

How the data were processed

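The 2 samples form 1 group, biological replicates 1 and 2, per the labels, which also give dm6 as the assembly and sonication to 200 to 800 bp. The peak lists of the series were made from the alignments of both replicates and those of a replicate from that replicate alone, per the text files deposited with them. Neither aligner nor peak caller is given in the sources used here. Peak signal and a score of at most 1000 per peak (830 or more in the thresholded lists) are the authors' values, and the deposited ranked lists also give the −log10 of the IDR. All thresholded peaks have an IDR of 1% or less. Of the peaks at or under that limit in the ranked list, 184 are not in the conservative list and were not analysed here; 0 of them lie in the windows described. The ranked list behind the broader list was not used.

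Summits were counted in gene windows (Ensembl release 115 annotation, 6 arms, without transposable elements) and assigned to the nearest protein-coding transcript start, with Python 3.11.15, numpy 2.4.6, pandas 2.3.3 and scipy 1.17.1. The counting was tested on simulated summits. Overlap between lists needed 1 bp, and a replicate's signal was taken from the nearest summit of its ranked list within 100 bp. Sequence is RefSeq's Release 6. No test was made, since there is 1 group and the members and lists were chosen with earlier results of these data known. Values are given for the 12 genes of highest percentile, the 10 with the strongest own summit, those with no summit, an own octamer summit or shared summits, and neighbours nearest to their strongest summit. Other members and neighbours were named after their values were seen, to account for all 49. Alternatives changed the list, flank, thresholds and words.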

Additional observations from a re-analysis of the deposited data

How the results depend on the processing

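The counts follow the size of the window. With no flank, 2 kb or 25 kb in place of 10 kb, distinct summits came to 29, 68 and 223 and the median per gene to 0, 1 and 5. Summits nearest to a member were then 86.2%, 85.3% and 38.1% of them. Genes with a summit fell to 13 with no flank and 27 at 2 kb, the promoter share was 6.90% and 42.6%, and the octamer share with no flank was 6.90%. With only summits nearest to the gene's own start, 77 summits remained, the median count was 1, the median percentile 57.3 and 6 genes were at or above the 90th percentile. In the highest-signal 50% of peaks there were 66 summits, a median of 1 and a median percentile of 53.3. The broader list gave a promoter share of 29.7% and an octamer share of 6.06%. A promoter of 250 bp or 1000 bp gave 30.3% or 41.2%, starts of all genes gave 54.6% nearest to a member, and an octamer window of 200 bp gave 7.56%. With 1 replicate left out (the other's own list), the ranges were 37 to 41 genes with a summit, 88 to 146 distinct summits, a median of 2 to 3 per gene, a median percentile of 43.75 to 52.4, 0 to 4 genes at or above the 90th percentile, 31.5% to 37.5% at promoters, 62.5% to 69.2% nearest to a member and 2.27% to 5.48% with the octamer. The causes were not tested. Alternatives that left out chromosome 4, merged summits within 250 bp or split the octamer by location were added after the data were seen. They moved no value of the whole set beyond the spread between replicates. Single genes and role groups were not set against that spread. Some moved far, as given above for lbe, bap, ro, unpg, the eye genes and the neuron group. Merging also took the percentile of Pph13 from 54.8 to 34.2, of Gsc from 56.5 to 40.7 and of ap from 37.4 to 23.0. Other genes rose, among them zfh1 from 80.2 to 83.8. No paired analysis was possible because there is 1 group, so no groups share replicate numbers. Peak lists carry no depth, 2 samples allow no check for one that stands apart, and windows of long genes also hold their neighbours' summits.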
